A study of Rattus norvegicus with 2 samples.

Results

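The 10 genes described here store iron, break down haem or move iron across membranes, and were taken as a fixed list of symbols among the number-only gene IDs of rat urine RNA. They were Fth1 and Ftl1 (iron storage), Hmox1, Blvra and Blvrb (haem breakdown), Tfrc, Slc40a1 and Slc11a2 (iron transport), and the plasma proteins Cp and Hp. All 10 were found among 16484 number-only gene IDs, within a table of 113011 features. Urine RNA was sequenced from Sprague Dawley rats, operated at 8 weeks of age and followed for 2 weeks. In the UUO group (unilateral ureteral obstruction) the right ureter was tied, which scars the kidney, whereas the group labelled WT had the same surgery without the tie. Urine was drawn by catheter from the ureter joined to the kidney, and in UUO rats only urine made after the accumulated urine had drained was kept. There was 1 library per group, so no value below has a replicate check and no test between groups was possible. The sources do not say if a library pools several animals.

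Iron inside cells is kept in ferritin, a shell built of heavy and light chains. Haem from worn-out red cells or damaged tissue is opened by haem oxygenase, which frees iron and biliverdin, and biliverdin reductase then makes bilirubin. Transferrin receptor and the divalent metal transporter bring iron into cells, ferroportin lets it out, ceruloplasmin oxidises it for transport in plasma, and haptoglobin binds free haemoglobin. In the kidney, filtered iron and haemoglobin are taken up mainly by the proximal tubule.

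In the table the conditions are called UrRf, read here as UUO, and Urc, read as WT, and every direction below would be opposite if that reading were wrong. Values are FPKM, read fragments scaled to transcript length and to library size, a scale on which levels of different genes can be compared. Differences are given on the log2(FPKM + 1) scale, UUO minus WT, which understates the change of low genes. A gene was counted as higher or lower at a 2-fold difference, a log2 difference of 1 or more in size, if it reached 1 FPKM in either library. With the added 1, a gene listed at 0 in 1 library that reaches 1 FPKM in the other always passes this 2-fold limit. By the steps in the FPKM values, the normalising total was 2115000 fragments in WT and 2441000 in UUO urine. On an effective length of 1000 bases, 3 fragments, the limit that a count of 0 allows, correspond to 1.42 FPKM in WT and 1.23 in UUO urine, for counting error only. A value of 0 in this table can also be a failed estimate, since 23 of 72 genes for ribosomal proteins, which every cell uses, had a value of 0 in WT urine, 18 of them in both libraries. No fold is therefore given for a gene listed at 0 in either library. Values above 0 can be too low as well. Gapdh, also used by every cell, was at 0.367 FPKM in UUO and 0.406 in WT urine. Folds that rest on low values carry this limit.

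Hmox1 and Blvra, genes of successive steps of haem breakdown, differed in opposite directions. Hmox1, the inducible haem oxygenase, was abundant in UUO urine and listed at 0 in WT urine, while Blvra, the main biliverdin reductase, was many times lower in UUO urine. The other genes of these steps did not share the contrast. Without rescaling, Hmox2 was lower in UUO urine (log2 difference -1.05, just past 2-fold), and Blvrb did not reach 2-fold (-0.91). Fth1, the ferritin heavy chain, was higher in UUO urine. By gene ID it was the most abundant of the 10 in both libraries, but in WT urine it was below the sum at the other possible place of Ftl1. The iron transporters and the plasma proteins were low in both libraries. Of the 10 genes, 9 reached 1 FPKM in either library, of which 6 were higher (Fth1, Ftl1, Hmox1, Slc11a2, Cp and Hp) and 1 was lower (Blvra) in UUO urine. Hmox1, Slc11a2, Cp and Hp were listed at 0 in WT urine, so that reaching 1 FPKM alone made them count as higher. The shares over all gene IDs below include genes with such zeros too. Ftl1 is counted by its gene ID, and the count is 5 higher and 2 lower if the features at its other possible place are used. Among all 9853 gene IDs that reached 1 FPKM, 25.7% were higher and 36.5% were lower. The median log2 difference of the 9853 was -0.51, and that of the 7218 detected in both libraries was -0.81, so that a typical gene had a lower FPKM in UUO urine. Multiplying UUO values by the median ratio of 1.86 brings the second median to 0, and turns the split over all gene IDs from 2534 higher and 3600 lower into 4207 higher and 1652 lower. Under that scaling, differences are given for the 5 genes above 0 in both libraries, and counts for the pathway lists.

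**Figure D1:**
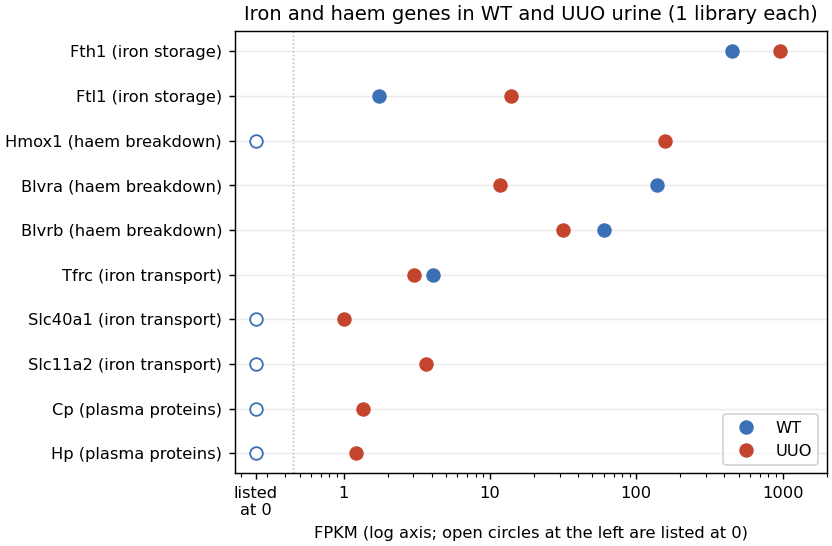
FPKM (log axis) of the 10 genes in the WT and UUO libraries, 1 point per library, with open circles at the left for genes listed at 0. Hmox1 stands at 157.6 FPKM in UUO urine and at 0 in WT urine, Blvra is the gene furthest to the WT side, and 5 genes are listed at 0 in WT urine.

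Hmox1 (gene ID 24451, chromosome 19, 25622550 to 25629379, build rn5) had an FPKM of 157.6 in UUO urine and was listed at 0 in WT urine. In UUO urine it ranked 133rd among the number-only gene IDs. The other 3 features listed at its locus were at 0 in WT urine too, and the locus summed to 162 FPKM in UUO urine. A zero in WT urine alone was common over the whole table, with 25.3% of all 16484 gene IDs, against 1.1% with a zero in UUO urine alone. Of the 10 genes, 5 had a zero in WT urine alone (Hmox1, Slc40a1, Slc11a2, Cp and Hp). At high UUO levels such a zero was rare. Of 235 gene IDs with at least 100 FPKM in UUO urine, 6 (2.55%) were listed at 0 in WT urine. These were the chemokine gene Ccl3 (293.9 FPKM in UUO urine), the transcription factor gene Junb (268), the platelet factor gene Pf4 (182), Hmox1, the galectin gene Lgals5 (151) and the osteopontin gene Spp1 (129.7). The 5 genes beside Hmox1 were chosen after their values were seen. Lgals5, Pf4 and Spp1 were also the 3 genes nearest to Hmox1 by Euclidean distance over the log2 levels of both libraries, at distances of 0.061, 0.21 and 0.28, and with 2 libraries such nearness says only that the levels are alike.

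Hmox2, the haem oxygenase that most cells make at a steady level, was 24.1 FPKM in UUO urine against 50.9 in WT urine. The log2 difference of -1.05 was just past 2-fold, and by the median ratio it was -0.18. In UUO urine Hmox1 was therefore 6.53 times the level of Hmox2, a ratio that no rescaling of a library by a single factor can move, whereas in WT urine only Hmox2 was listed above 0.

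Blvra (gene ID 116599, chromosome 3, 126087070 to 126103287), which reduces the main isomer of biliverdin to bilirubin, was 11.7 FPKM in UUO urine against 138 in WT urine. The WT value was 11.8 times the UUO value, a log2 difference of -3.45, and by the median ratio the difference was -2.61. Blvra ranked 423rd in WT urine and 3243rd in UUO urine. Blvrb (gene ID 292737, chromosome 1, 85468771 to 85491182), a reductase of other biliverdin isomers and of flavins that is abundant in red cells, was 31.7 FPKM in UUO and 60.6 in WT urine. Its log2 difference of -0.91 did not reach 2-fold, and by the median ratio it was -0.04. The order of the 2 reductases was reversed between the libraries. Blvra was 2.28 times the level of Blvrb in WT urine and 0.370 times in UUO urine.

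Of the 10 genes, 6 had a promoter window in the RefSeq table of the GRCr8 assembly, 250 bases before to 50 bases after the gene start. Fth1, Ftl1, Hmox1 and Hp had no entry. The windows were searched on both strands for TGACNNNGC, the core of the antioxidant response element, to which NRF2, a regulator of haem oxygenase and ferritin genes, can bind. It was found in the window of Blvra alone among the 7 windows of these 6 genes, and in 12.1% of all 33469 windows. The match, TGACCCAGC, lies on the strand opposite to the gene, from 145 to 137 bases before the start. It is the only match in that window. The 250 bases before the start of both biliverdin reductase genes are shown because they are the pair whose order was reversed between the libraries. They are chr3:134802660-134802909 (plus strand) for Blvra and chr1:91866008-91866257 (plus strand) for Blvrb in GRCr8, with the match in capitals.
Blvra: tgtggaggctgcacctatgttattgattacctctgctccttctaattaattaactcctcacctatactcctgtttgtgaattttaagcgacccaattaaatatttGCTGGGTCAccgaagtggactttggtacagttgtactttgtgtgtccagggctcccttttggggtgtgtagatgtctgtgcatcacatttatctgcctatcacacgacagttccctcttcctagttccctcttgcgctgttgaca
Blvrb: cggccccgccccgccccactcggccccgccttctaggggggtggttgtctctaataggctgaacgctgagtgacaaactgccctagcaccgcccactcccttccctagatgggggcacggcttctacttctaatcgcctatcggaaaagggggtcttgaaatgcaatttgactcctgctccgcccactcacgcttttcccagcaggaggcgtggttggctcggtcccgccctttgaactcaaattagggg
The Blvrb stretch holds 60.4% G and C and the Blvra stretch 44.4%. A match is a description of the letters and no sign of binding. A second search, of the 50 bases after the start on the sense strand, looked for the loop of the iron-responsive element with 5 paired bases on either side, the site that iron regulatory proteins bind in messages such as those of ferritin. It found 0 matches in the windows of these genes and 2 in all windows. Fth1 and Ftl1 had no window, and the rest of each message was not searched. The search therefore cannot tell whether these genes carry the element.

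Fth1 (gene ID 25319, chromosome 1, 232856931 to 233097316), whose chain carries the site that oxidises iron for storage, was 954 FPKM in UUO and 450.4 in WT urine. UUO was 2.12 times WT, a log2 difference of 1.08, just past the limit, and by the median ratio the difference was 1.98. Fth1 ranked 13th among the number-only gene IDs in UUO urine and 71st in WT urine. Its listed locus merges 33 features over 240385 bases, including other genes. The noncoding entry NONRATT003162 at this locus was 578 FPKM in UUO and 38.3 in WT urine, and NONRATG001673 was 83.3 and 14.9. In the other direction, NONRATT003161 was 10.9 FPKM in UUO urine against 14.8 in WT urine, and the neighbouring gene Fads3 was 1.07 against 7.19. Summed over the merged locus, neighbouring genes included, the log2 difference was 1.61. The 3 genes with levels nearest to those of Fth1 were Fam25a (888 FPKM in UUO, 555 in WT urine) and the keratin genes Krt19 (752 and 357) and Krt8 (748 and 578), at distances of 0.32, 0.48 and 0.502.

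Ftl1, the ferritin light chain (gene ID 29292), had opposite directions at the 2 places where it could be read. By its gene ID it was 13.8 FPKM in UUO urine against 1.73 in WT urine, a ratio of 7.97 and a log2 difference of 2.44 (3.29 by the median ratio). The listed position of this ID, however, is a span of 945 bases on chromosome 5 (156011824 to 156012769) with no other feature, while RefSeq places Ftl1 on another chromosome, between Gys1 and Bax. Such a disagreement was found for 305 of 16329 matched gene IDs (1.87%), and for no other of these 10 genes. RefSeq lists a protein-coding gene with the synonym Ftl1, LOC100360087, on the chromosome of the listed position, and this gene has no entry of its own in the table.

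Between Gys1 and Bax the table lists 1 locus (chromosome 1, 102527132 to 102528984) with 6 noncoding entries and no number-only gene ID. NONRATT005280 was 1746 FPKM in WT and 182 in UUO urine. NONRATT005276 went the other way, at 13.0 against 255, and the other 4 entries were listed at 0 in both libraries. The sum was 1759 FPKM in WT and 437 in UUO urine, 4.03 times higher in WT, a log2 difference of -2.01. The level at this locus was thus far above that of the Ftl1 ID in both libraries. Whether its reads came from Ftl1 was not tested, and this place was looked up after the position of the ID had been seen. Fth1 was 69.03 times the Ftl1 ID in UUO and 259.6 times in WT urine, but 2.18 and 0.256 times the sum between Gys1 and Bax, so that the change of the heavy to light chain ratio also depended on which features stand for Ftl1. No direction can be given for the light chain from these values.

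**Figure D2:**
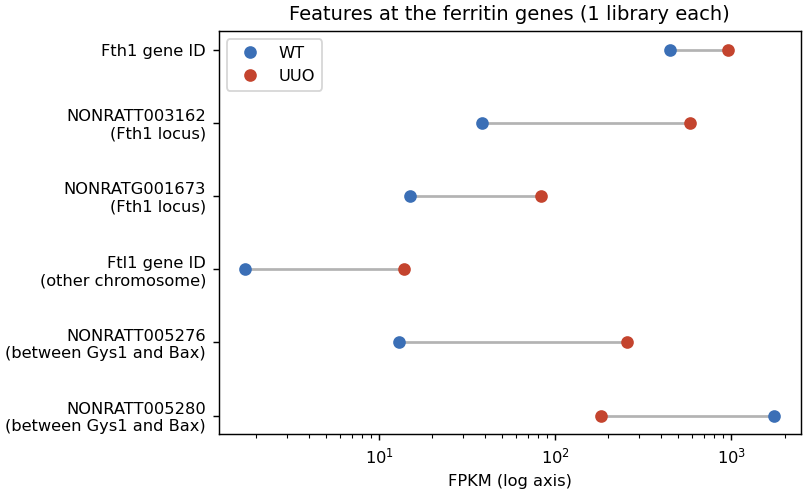
FPKM (log axis) in WT and UUO urine, 1 library each, of the Fth1 gene ID and 2 noncoding entries at its locus, the Ftl1 gene ID at its listed position, and the 2 entries above 0 between Gys1 and Bax. The 3 plotted features of the Fth1 locus are higher in UUO urine (NONRATT003161, at 10.9 against 14.8, is not plotted), whereas NONRATT005280 is higher in WT urine (1746 against 182) and the other Ftl1 features are higher in UUO urine.

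Tfrc, the transferrin receptor (gene ID 64678, chromosome 11, 74479840 to 74502561), was 3.03 FPKM in UUO and 4.05 in WT urine. The log2 difference of -0.33 was within 2-fold, and it was 0.39 by the median ratio, so that no direction held. Fth1 was 315 times the level of Tfrc in UUO urine and 111 times in WT urine. Slc11a2, the divalent metal transporter (gene ID 25715, chromosome 7, 139833531 to 139870637), was 3.63 FPKM in UUO urine and listed at 0 in WT urine. Its locus was not silent in WT urine, since the noncoding entry NONRATT052515 there was 4.98 FPKM in WT and 0.858 in UUO urine. The sum over the locus was 8.24 FPKM in UUO urine against 5.34 in WT urine, a log2 difference of 0.54. Slc40a1, the iron exporter ferroportin (gene ID 170840, chromosome 9, 52560180 to 52578116), was 0.999 FPKM in UUO urine and listed at 0 in WT urine, and so fell just short of the 1 FPKM limit. Under each of the 3 rescalings, and with FPKM summed over its locus, it passed the limit and counted as higher in UUO urine. With a zero in WT urine this call follows from passing the limit, so these settings are not separate support.

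The plasma proteins Cp and Hp were close to the limit of detection. Ceruloplasmin, Cp (gene ID 24268, chromosome 2, 124467561 to 124551506), was 1.36 FPKM in UUO urine and haptoglobin, Hp (gene ID 24464, chromosome 19, 52921325 to 52926538), was 1.21. Both were listed at 0 in WT urine. Among 3423 gene IDs with 1 to 5 FPKM in UUO urine, 40.9% were listed at 0 in WT urine, so the zeros of Slc11a2, Cp and Hp were common for their level. Their loci held other signal. At the Cp locus the neighbouring gene Hps3 was 2.88 FPKM in UUO urine against 7.75 in WT urine, and the log2 difference of the locus sum was -0.56. At the Hp locus the noncoding entry NONRATT027557 was 7.10 FPKM in UUO urine and 0 in WT urine. The entries NONRATG015119 (0.216 in UUO, 1.39 in WT urine) and NONRATT028392 (0.207 and 1.38) went the other way, and the locus sum was higher in UUO urine by 1.48 on the log2 scale. Of 8 liver markers, the organ that makes most Cp and Hp, 5 were listed at 0 in both libraries, among them Alb and Apoa1, and the 8 summed to 2.47 FPKM in UUO and 9.90 in WT urine. The WT sum was Ttr alone, the single liver marker to reach 1 FPKM, at 1.56 FPKM in UUO urine.

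**Figure D3:**
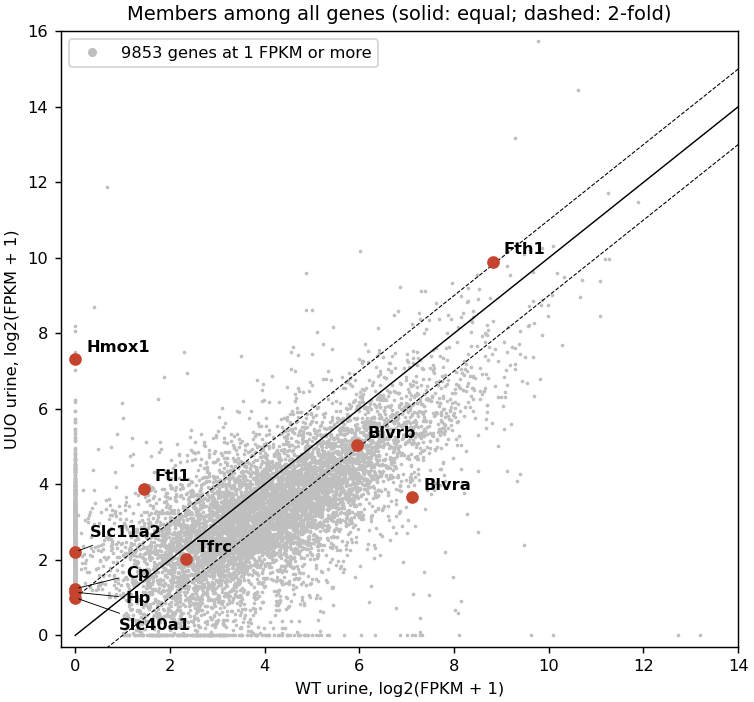
Levels of the 10 genes (red) among 9853 gene IDs with at least 1 FPKM in either library (grey), as log2(FPKM + 1) in WT (x axis) and UUO urine (y axis), with lines of equality and of a 2-fold difference. Hmox1 lies high on the left edge, Fth1 just past the upper 2-fold line and Blvra far below the lower one, while Blvrb and Tfrc lie between the lines.

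Other genes of iron and haem handling were described from 6 lists, of which 78 genes were listed and 60 reached 1 FPKM. Of these, 17 were higher and 18 lower in UUO urine. By the median ratio 33 of the listed genes were higher and 7 lower. There the 1 FPKM limit was applied to the scaled values, so the 33 include genes below it as deposited. The unscaled counts, here and for the single lists, stand beside 25.7% higher and 36.5% lower among all 9853 gene IDs at 1 FPKM or more. Counts by the median ratio stand beside 4207 higher and 1652 lower over all gene IDs under the same scaling. In the storage and sensing list 0 of 5 were higher and 2 were lower, namely Fbxl5, an iron-sensing ubiquitin ligase subunit (17.7 FPKM in UUO, 86.6 in WT urine, log2 difference -2.23), and Aco1, the iron regulatory protein that is also cytosolic aconitase (39.1 and 123, -1.63). By the median ratio Fbxl5 alone was past 2-fold, at -1.37. Ncoa4, the receptor that leads ferritin to breakdown, was 97.5 FPKM in UUO urine against 102.8 in WT urine, a log2 difference of -0.08 that was 0.81 by the median ratio. Fth1 was 9.79 times the level of Ncoa4 in UUO urine and 4.38 times in WT urine.

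In the iron transport list 6 of 10 genes were higher and 2 were lower. Of the 6, 5 were listed at 0 in WT urine and so counted as higher on reaching 1 FPKM. By the median ratio 11 of 13 were higher and 2 lower. Of these, Steap1 (0.799 FPKM in UUO urine), Steap3 (0.658) and Slc39a14 (0.928), at 0 in WT urine, reached 1 FPKM only after that scaling. The higher genes as deposited included Lcn2, a siderophore-binding protein and marker of tubular injury (8.63 FPKM in UUO urine). Others were Hfe (4.05), which takes part in iron sensing, and Hamp (3.24), the hormone hepcidin that closes ferroportin. The lower ones were the mitochondrial iron importer Slc25a28 (6.68 FPKM in UUO, 54.2 in WT urine, log2 difference -2.84) and Slc22a17, a lipocalin receptor (0.297 and 4.48, -2.08). Slc25a37, the mitochondrial iron importer of red-cell precursors, was 28.02 FPKM in UUO urine against 13.0 in WT urine (1.05), opposite to Slc25a28. Slc25a37 was chosen after its values were seen.

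In the haem handling list 5 of 11 genes were higher and 2 were lower. Of the 5, 3 were listed at 0 in WT urine and so counted as higher on reaching 1 FPKM. Slc48a1, which moves haem out of endosomes and lysosomes, was 24.5 FPKM in UUO urine against 5.31 in WT urine (2.01). Abcg2, an exporter of porphyrins and drugs (2.77 FPKM), and Slc46a1, a folate and haem importer (1.59), were listed at 0 in WT urine. Such zeros were common at 1 to 5 FPKM in UUO urine (40.9% of gene IDs). Keap1, the inhibitor of NRF2, was 13.0 FPKM in UUO and 47.2 in WT urine (log2 difference -1.78), and Hmox2 was the other lower gene. Neither was past 2-fold by the median ratio, under which 9 of 12 genes were higher and 0 lower. Of the 9, Flvcr2 (0.590 FPKM in UUO urine, 0 in WT urine) reached 1 FPKM only after that scaling. Cd163, the macrophage receptor for haemoglobin bound to haptoglobin, was listed at 0 in both libraries.

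Haem synthesis was split evenly, with 4 of 13 genes higher and 4 lower. Alas2, the first enzyme of the pathway in red-cell precursors, was 414 FPKM in UUO urine against 0.317 in WT urine, a log2 difference of 8.30. Alas1, the form of the same enzyme in other cells, went the other way, at 18.0 FPKM in UUO and 100.3 in WT urine (-2.41), as did Alad, the next enzyme (25.8 and 148, -2.47), and Ppox (9.52 and 25.4, -1.33), which was within 2-fold by the median ratio at -0.50. Urod (107 and 13.3, 2.92) and the mitochondrial membrane protein gene Tspo (59.3 and 9.95, 2.46) were higher in UUO urine. The median log2 difference of the list was 0.04, against -0.51 for all genes, and by the median ratio 6 were higher and 2 lower.

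In the iron-sulphur assembly list 0 of 14 genes were higher and 6 were lower, with a median log2 difference of -0.84, but by the median ratio 4 were higher and 2 lower, so that no direction held for this list. Fdxr, which supplies electrons to the pathway, was 0.624 FPKM in UUO and 12.8 in WT urine (-3.09), and Isca2 was 9.13 FPKM in WT and listed at 0 in UUO urine. Of 7 NRF2 target genes, a list that Hmox1 and Fth1 could also belong to, 2 were higher and 2 lower, with a median of -0.80. By the median ratio 3 of 8 were higher and 0 lower. The added gene, Slc7a11 (0.606 FPKM in UUO urine, 0 in WT urine), reached 1 FPKM only after that scaling and counted as higher. Srxn1 was 31.3 FPKM in UUO and 5.67 in WT urine (2.28) and the quinone reductase Nqo1 was 53.1 and 11.8 (2.08), while Gclm, a subunit of the enzyme that starts glutathione synthesis, was 311 and 819 (-1.40) and malic enzyme, Me1, was 45.5 and 118 (-1.36).

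**Figure D4:**
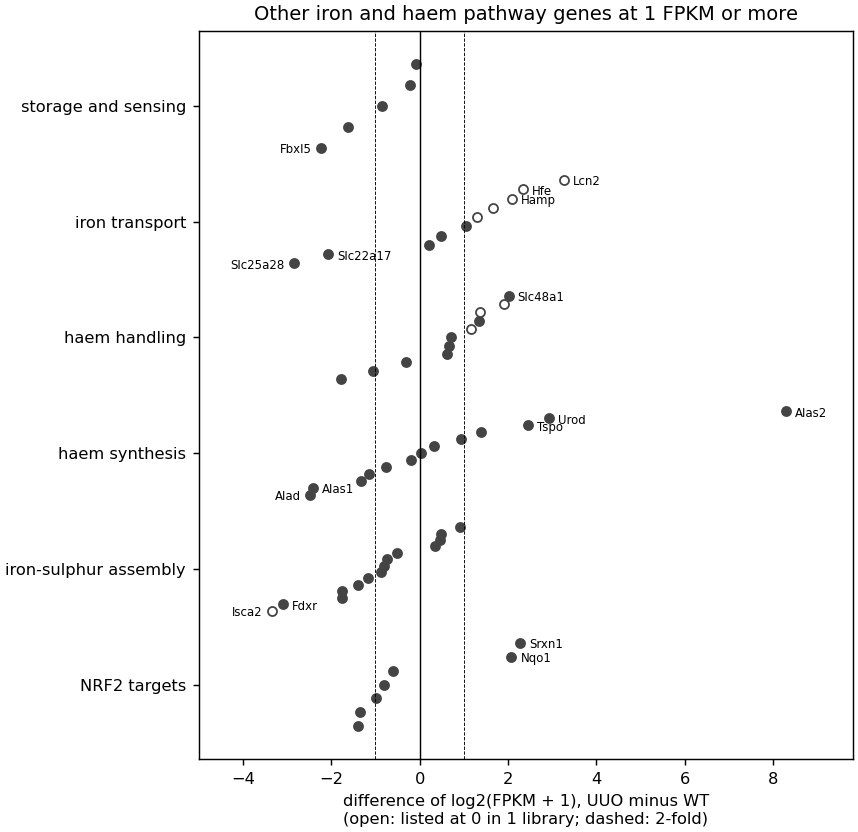
Difference of log2(FPKM + 1), UUO minus WT, for each gene with at least 1 FPKM in either library in 6 pathway lists, 1 point per gene and open points for genes listed at 0 in a library, whose position depends on the added 1. Alas2 lies furthest to the right at 8.30, the storage and sensing and iron-sulphur lists have 0 genes past the upper 2-fold line (4 of the iron-sulphur list pass it by the median ratio), and the NRF2 targets lie on both sides.

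Markers of several cell types also differed between the libraries, and their part in the values above was not tested. In bulk RNA, more cells of a type and more RNA per cell cannot be told apart. Among all 9853 gene IDs at 1 FPKM or more, 25.7% were higher and 36.5% lower. By the median ratio 4207 gene IDs were higher and 1652 lower. A zero in WT urine alone was found for 25.3% of all 16484 gene IDs. Of 10 red-cell markers, which include Alas2, 9 were higher in UUO urine and 0 lower, and they summed to 89019 FPKM in UUO and 3224 in WT urine. Of 9 macrophage markers 5 reached 1 FPKM, of which 4 were higher. Of these 4, 3 were listed at 0 in WT urine, so that reaching 1 FPKM alone made them count as higher. In WT urine 7 of the 9 were listed at 0, 2 of them in both libraries. The sums were 42.1 FPKM in UUO and 9.61 in WT urine. Within them Cd68 was 7.87 FPKM in UUO urine and 0 in WT urine, and Cd163 and Mrc1 were at 0 in both. All 7 neutrophil markers were listed at 0 in WT urine, 2 of them in both libraries. The 4 that reached 1 FPKM counted as higher in UUO urine, a call that their zeros in WT urine fixed in advance. There S100a9 was 71.7 FPKM and Mpo at 0, and the list summed to 112 FPKM. Of 7 proximal tubule markers 6 were lower in UUO urine and 0 higher, with sums of 285 FPKM in UUO and 1049 in WT urine. Of 6 markers of the distal tubule and collecting duct 2 were higher and 0 lower (sums of 129.9 and 122.0), and of 6 urothelium markers 2 were higher and 1 lower (sums of 1112 and 806), or 4 higher and 0 lower by the median ratio.

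**Figure D5:**
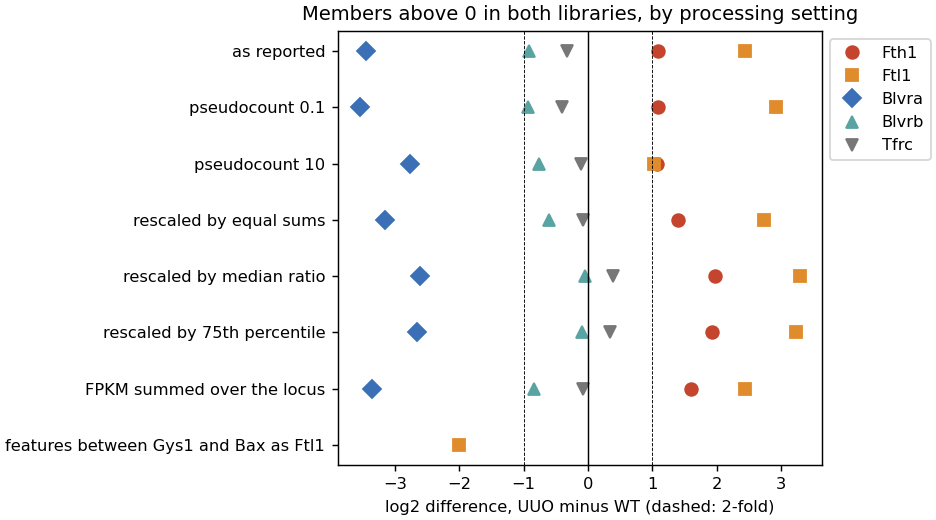
Log2 difference, UUO minus WT, of the 5 genes above 0 in both libraries under each processing setting, 1 point per gene and setting. Fth1 stays to the right and Blvra to the left of the 2-fold lines in every setting, Blvrb stays between 0 and -1, Tfrc crosses 0 under 2 rescalings, and Ftl1 moves from 2.44 to -2.01 when the features between Gys1 and Bax stand for it.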

How the data were processed

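RNA of rat urine was measured in 2 libraries, 1 labelled WT and 1 labelled UUO. Per the study's methods, urine was taken from the ureter by catheter in both groups. The authors cleaned the reads, aligned them and assembled transcripts. The submitters' processing notes name Bowtie2 2.0.6, TopHat2 2.0.9, Cufflinks 2.1.1, Cuffdiff 2.1.1 and build rn5. The deposited table gives 1 FPKM value per feature and library, scaled by the authors to a total that the sources do not name. Its columns of fold changes, test statistics, p-values and q-values are the authors' own comparison and were not used. Columns were matched to groups from the names UrRf and Urc, the series title and the headings of the study's urine lists.

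Symbols came from RefSeq (GRCr8), which matched 16329 of 16484 number-only IDs (99.1%), and no RefSeq position was compared with rn5. Overlapping features divide the reads of a locus, so each FPKM is uncertain where a locus holds several. Read strand was not available in the table. Normalising totals were fitted so that FPKM of assembled features with no neighbour at their locus, 400 to 1200 bases long, gave whole fragments. Within 0.1 of a whole number lay 93.5% of 186 values in WT and 100% of 400 sampled values in UUO urine. The fit and the fold calls were tested on simulated data.

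The 10 genes and all lists were chosen with earlier results of these data known. Named beside them were the 3 genes with the greatest difference in each direction per pathway list and the 3 genes nearest to Hmox1 and to Fth1. One gene that this rule names is not reported here. Number-only IDs described as ferritin were also to be named, but the reference gives no descriptions, so symbols were used, which added Ftmt (0.190 FPKM in UUO and 0 in WT urine). Python 3.11.15, pandas 2.3.3, numpy 2.4.6 and matplotlib 3.10.9 were used. Alternatives were pseudocounts of 0.1 and 10, 3 rescalings, sums per locus, other limits on FPKM and on fold, and, chosen after seeing the data, the features between Gys1 and Bax as Ftl1.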

Additional observations from a re-analysis of the deposited data

How the results depend on the processing

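No paired analysis was possible because there was a single library for UUO and for WT. A log2 difference that kept its sign and its side of 2-fold, and a count within 1.5 times, are taken as unchanged, which held in 60 of 85 recomputations. Some of the 60 could not have changed. Dropping the filter adds only genes below 1 FPKM in both libraries, which cannot reach a log2 difference of 1. The Ftl1 ID is the only feature at its locus, so its locus sum is the same value. The log2 difference of Fth1 ranged from 1.07 to 1.98 and that of Blvra from -3.55 to -2.61. Tfrc reversed to 0.39 with the median ratio and 0.35 with the 75th percentile, since both raise UUO values by a single factor (1.86 and 1.79). Ftl1 reversed to -2.01 with the features between Gys1 and Bax, which left 5 members higher and made 2 members lower.

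Members higher in UUO urine fell from 6 to 3 with a pseudocount of 10 or at least 5 FPKM (Fth1, Ftl1 and Hmox1) and to 3 at a 4-fold limit (Hmox1, Ftl1 and Slc11a2). Slc40a1 counted as higher under the 3 rescalings and over locus sums, and Cp and Slc11a2 did not over locus sums. Of the pathway genes, 7 were higher with a pseudocount of 10, 10 at 5 FPKM, 9 with 7 lower at 4-fold, 26 over locus sums, 33 with 7 lower by the median ratio and 32 with 7 lower at the 75th percentile. Of all gene IDs, 370 were higher and 1770 lower with a pseudocount of 10, 1041 were higher at 5 FPKM, and 1059 were higher and 1185 lower at 4-fold. The median ratio gave 4207 higher and 1652 lower, the 75th percentile 4057 and 1758. Higher pseudocounts and limits leave fewer genes to count. With 1 library per group, no difference has a replicate check. Cp, Hp and Slc40a1 in UUO urine were below the level that 3 fragments give in WT urine at 1000 bases. At that length depth does not resolve their difference. The level is lower for longer messages, and the lengths of these messages were not used.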
